A study of Homo sapiens with 22 samples.

Results

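FOXA2 regions of PC3 cells that lie outside the accessible chromatin mapped in the same line were examined. Of the 24038 regions enriched for FOXA2 in vehicle-treated PC3 cells, 2273 (9.46%) were chosen by 2 exclusions: none overlapped a PC3 ATAC region by a single base pair, and none overlapped a FOXA2 region of vehicle-treated NCI-H660 cells. They are called ATAC-negative regions here. The nearest comparison group was the 19095 vehicle regions that also missed the NCI-H660 FOXA2 list but overlapped a PC3 ATAC region, called ATAC-positive. The other 2670 vehicle regions overlapped NCI-H660 FOXA2, and 290 of them were also outside the ATAC list.

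FOXA2 is a forkhead transcription factor of the endoderm and its derivatives, including liver, lung and pancreas. Forkhead factors of the FOXA family are known as pioneer factors, because their winged-helix domain resembles linker histone and can bind its sequence on nucleosomal DNA, before the chromatin is open. ATAC-seq maps open chromatin through the insertion of adapters by a transposase, and H3K27ac marks active enhancers and promoters. JUN and FOSL1 are subunits of the AP-1 dimer, which binds a nearly palindromic word. A FOXA2 region with no ATAC region is therefore a candidate for FOXA2 on closed chromatin, although an absent ATAC region states only that none was called there.

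The series held 22 lists of enriched regions in 21 groups from PC3, NCI-H660 and LNCaP, established prostate cancer cell lines. PC3 and NCI-H660 express FOXA2 and lack androgen receptor, and NCI-H660 is neuroendocrine; LNCaP is of luminal type. FOXA2 was profiled in PC3 after vehicle, ORY-1001 (10 µM, 4 h) or C12 (0.5 µM, 4 h), both described by the study as LSD1 inhibitors, in NCI-H660 after vehicle or ORY-1001 (10 µM, 4 h), and in LNCaP_FOXA2OE, an LNCaP line made to overexpress FOXA2. JUN was profiled in PC3 and NCI-H660 after siFOXA2 or the negative control siNC, in LNCaP after siFOXA1 or siNC, in LNCaP_FOXA2OE and in a line titled LNCaP_FOXA2K265R, whose cell line label reads LNCaP_FOXA2OE. FOSL1 was profiled in PC3 after siFOXA2 or siNC, H3K27ac in vehicle-treated PC3, H3K4me2 in vehicle-treated NCI-H660, and ATAC in both lines after vehicle. The PC3 ATAC list was also named siNTC, the study's non-target control siRNA. The LNCaP_FOXA2OE and LNCaP_FOXA2K265R groups were labelled vehicle as well. PC3 cells given vehicle had FOXA2 profiled in 2 more libraries, for which the labels name no antibody. The study tested several FOXA2 antibodies, so these 2 libraries may not repeat the first assay. They are called the later ChIPs and played no part in the choice. Every other group held 1 list, so no p-value between groups was possible, and each share carries a Wilson 95% interval that covers counting error only. The lists gave no read numbers, and the depth is unknown.

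The ATAC-negative regions that scored highest are printed first, because most of them hold the forkhead words searched for. A forkhead word was TGTTTAC or TGTTTAT or TGTTTGC or TGTTTGT or TATTTAC or TATTTAT or TATTTGC or TATTTGT. Either strand counted, in a window reaching 100 bp from the middle of the region. Capitals mark these words or their reverse complements in the central 120 bases, given 5′ to 3′ on the plus strand of the hg19 genome. The first 5 lines are the 5 highest-scoring ATAC-negative regions, and the sixth completes the 5 highest that were found in both later ChIPs and under both inhibitors.
Between genes, nearest start CSRP2, chr12:77309656-77309775: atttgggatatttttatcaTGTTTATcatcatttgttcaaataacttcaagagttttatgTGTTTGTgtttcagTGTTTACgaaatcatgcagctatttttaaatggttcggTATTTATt
Between genes, nearest start DPH6, chr15:36057424-36057543: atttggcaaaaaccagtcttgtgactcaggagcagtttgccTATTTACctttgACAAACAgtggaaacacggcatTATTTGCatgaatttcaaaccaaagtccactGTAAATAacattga
Between genes, nearest start KAT6B, chr10:76581965-76582084: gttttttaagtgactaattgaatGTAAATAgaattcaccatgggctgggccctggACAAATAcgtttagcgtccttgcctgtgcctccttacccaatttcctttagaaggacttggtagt
Between genes, nearest start AHSG, chr3:186324171-186324290: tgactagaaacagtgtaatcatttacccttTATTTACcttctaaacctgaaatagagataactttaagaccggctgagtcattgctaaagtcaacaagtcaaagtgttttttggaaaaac
Intron of LAMP3, chr3:182846612-182846731: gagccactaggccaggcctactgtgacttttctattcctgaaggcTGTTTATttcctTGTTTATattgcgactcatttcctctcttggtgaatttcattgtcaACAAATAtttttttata
Intron of FGGY, chr1:60203998-60204117: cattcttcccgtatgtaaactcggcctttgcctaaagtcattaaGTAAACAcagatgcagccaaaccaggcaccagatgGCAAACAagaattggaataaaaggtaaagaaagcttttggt
The 6 stretches hold between 1 and 4 forkhead words each.

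The region 36913 bp from the start of CSRP2, a gene for a LIM-domain protein, had the highest score (chr12:77309498-77309934, score 949). The score of a list is read as 10 times the −log10 q-value, so a minimum of 13 stands for a q-value of about 0.05. This region scored 1734 and 1543 in the later ChIPs and 133 under C12, was not listed under ORY-1001, and held 4 forkhead words. It lay 3781 bp from the nearest ATAC region. The region nearest to DPH6, a diphthamide synthesis gene, lay between genes 219091 bp from that start (chr15:36057299-36057668, score 935). It scored 1565 and 1263 in the later ChIPs, 134 under ORY-1001 and 168 under C12, overlapped H3K27ac, and held an AP-1 word beside its 4 forkhead words.

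The region 2660 bp from the start of KAT6B, a histone acetyltransferase gene, differed from these in its retention (chr10:76581820-76582229, score 814). It scored 730 under ORY-1001 and 518 under C12, against 1121 and 923 in the later ChIPs, and it overlapped a PC3 siNC JUN region and an NCI-H660 ATAC region. The region 6618 bp from AHSG, the gene for the liver plasma protein fetuin-A, scored 706 (chr3:186324033-186324428). Its scores in the later ChIPs, 2313 and 1827, were the highest of the 6, whereas those under ORY-1001 and C12 were 47 and 54. The region in a LAMP3 intron scored 699 (chr3:182846474-182846870), with 460 under ORY-1001 and 203 under C12. That in an FGGY intron scored 674 (chr1:60203856-60204259), with 225 and 230, and overlapped both H3K27ac and an NCI-H660 ATAC region. All 6 regions lay at least 1350 bp from an ATAC region, and every 51-base word of their centres was unique in the genome.

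As a class, the ATAC-negative regions were weaker and narrower than the rest of the vehicle list. Their median score was 85 (quartiles 48 to 133) against 154 (87 to 291) in ATAC-positive regions, and their median width 275 bp against 327 bp. Score and ATAC overlap belong to the choice of the regions or to the same library, so these are descriptions. Because the scores differed, each ATAC-positive share is also given standardised, that is, averaged over 10 score bands weighted as the ATAC-negative regions fill them. The highest band has no upper limit, so scores are not matched within it.

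Most ATAC-negative regions were found again in the later FOXA2 libraries. Later ChIP 1 held 1781 of 2273 (78.4%), beside 92.5% of all vehicle regions, and later ChIP 2 held 1706 (75.1%), beside 90.8%. Both later ChIPs held 1696 (74.6%, interval 72.8 to 76.4), beside 90.4% of all vehicle regions and 94.6% of ATAC-positive regions. The standardised ATAC-positive share was 87.9%, a difference of -13.3 percentage points (95% interval -15.3 to -11.4). The later lists were longer, with 77822 and 62714 regions, and when each was cut to its 24038 highest-scoring regions, a choice made after seeing the data, 48.2% of ATAC-negative and 69.3% of ATAC-positive regions were in both.

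Recovery depended on the vehicle score. Of the 236 ATAC-negative regions scoring 13 to 29, 18.6% were in both later ChIPs, against 59.7% of ATAC-positive regions in the same band. In the band of 80 to 119 the shares were 87.9% and 93.4%, and at 200 or more they were 95.2% and 99.4%. The gap was thus widest among the weakest regions. Within the longer later lists, the recovered ATAC-negative regions had a median percentile of 79.4 in later ChIP 1 and 75.2 in later ChIP 2. The ATAC-positive values were 83.7 and 80.2. In the vehicle list the median percentile was 26.0 for all ATAC-negative and 51.1 for all ATAC-positive regions. Percentiles in lists of unlike length are not directly comparable.

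**Figure D1:**
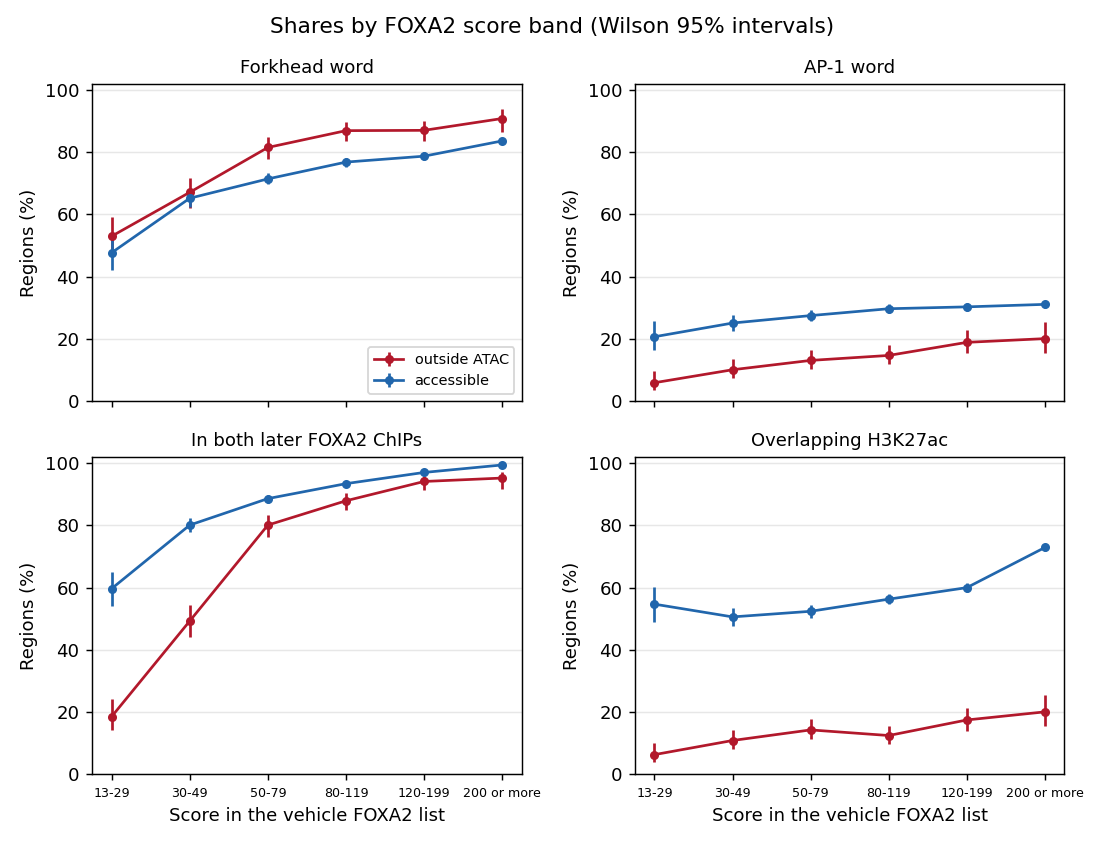
Share of regions (y axis, %) by score in the vehicle FOXA2 list (x axis, 6 bands) for ATAC-negative (red) and ATAC-positive (blue) regions, with Wilson 95% intervals. Forkhead words were more frequent in ATAC-negative regions from a score of 50 upwards, with overlapping intervals below it, whereas AP-1 words, presence in both later ChIPs and H3K27ac were less frequent in every band.

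Forkhead words were present in 1805 ATAC-negative regions (79.4%, 77.7 to 81.0), beside 77.2% of all vehicle regions and 78.0% of ATAC-positive regions. Windows of the same length 2 kb to either side held one in 37.9% of cases, and the centres of all 210960 PC3 ATAC regions in 29.7%. After standardisation the ATAC-negative regions held more, with an ATAC-positive share of 71.7% and a difference of 7.67 percentage points (5.77 to 9.57). Without the standardisation the difference was 1.41 points, with an interval of -0.352 to 3.17 that includes no difference. Among regions found in both later ChIPs the shares were 90.2% and 79.1%, and the standardised difference was 14.0 points (12.4 to 15.7).

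The words differed in how much they set the groups apart. TGTTTAC, the consensus of FOXA factors, was held by 726 ATAC-negative regions, 31.9% against a standardised 18.2% (difference 13.8 points, 11.7 to 15.8). TATTTAC was held by 23.9% against 16.5% (7.41 points, 5.53 to 9.30). The other 6 words differed by between -0.774 and 2.47 points, and of these only the intervals for TATTTAT (2.47) and TATTTGC (1.47) excluded 0. TGTTTAC occurred in 5.42% of all PC3 ATAC regions. Forkhead words that do not overlap each other were counted as well, because neighbouring words of the set can share bases. At least 2 separate words were present in 44.8% of ATAC-negative regions against a standardised 30.8% (14.0 points, 11.8 to 16.2), and at least 3 in 14.3% against 8.31%.

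AP-1 words showed the opposite order. TGACTCA or TGAGTCA, reverse complements of each other that can share at most 1 end base with a forkhead word, was found in 319 ATAC-negative regions (14.0%, 12.7 to 15.5), beside 26.3% of all vehicle regions. The ATAC-positive share was 29.7%, or 27.8% standardised, a difference of -13.7 percentage points (-15.4 to -12.1). The share in ATAC-negative regions was still above that in their flanks 2 kb away (2.79%) and below the 16.8% over all PC3 ATAC regions. It went from 5.93% in the lowest score band to 20.1% in the highest.

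Of 10 further motifs, the word AGATAA of GATA factors was the only one more frequent in ATAC-negative regions with an interval that excluded 0, at 16.9% against a standardised 14.1% (2.84 points, 1.15 to 4.53). AGATAA can overlap a forkhead word, and matches clear of one were at 12.9% against 11.9%, an interval of -0.508 to 2.54 points. Words of TEAD (GGAATG), E-box (CAGCTG or CAGGTG) and ETS (GGAAGT) factors were less frequent by -2.86, -2.95 and -2.16 points, with intervals that excluded 0. For CEBP (TTGCGCAA or TTGCACAA), RUNX (TGTGGTT), OCT (ATGCAAAT), SOX (ACAAAG or ACAATG), ONECUT (ATCGAT) and NFI (TTGGCA) all intervals of the difference included 0. A word is a match of letters and not evidence of a bound factor.

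The later ChIPs divided the ATAC-negative regions into groups that differed in sequence and in most other lists. In all, 1696 were in both, 95 in a single one and 482 (21.2%) in neither. Forkhead words were held by 90.2% of those in both and by 42.5% (38.2 to 47.0) of those in neither, where the flanks held one in 34.6%. TGTTTAC was held by 39.4% and 6.22%, at least 2 separate forkhead words by 55.0% and 11.6%, and an AP-1 word by 16.6% and 4.77%. The groups also differed in score, with medians of 98 and 36, and in place, with 37.5% and 56.0% more than 100 kb from a transcription start of a protein-coding gene.

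Forkhead words gathered at the centre of regions in both later ChIPs and not of regions in neither. Positions in the 95 regions of a single later ChIP were not examined. Per 1000 regions and base pair, the 1696 regions in both later ChIPs held 15.4 word centres between 0 and 20 bp from the region centre, against 4.37 and 4.79 in the outermost bins. The 482 regions in neither held between 2.07 and 3.84 in every bin, with no peak at the centre.

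**Figure D2:**
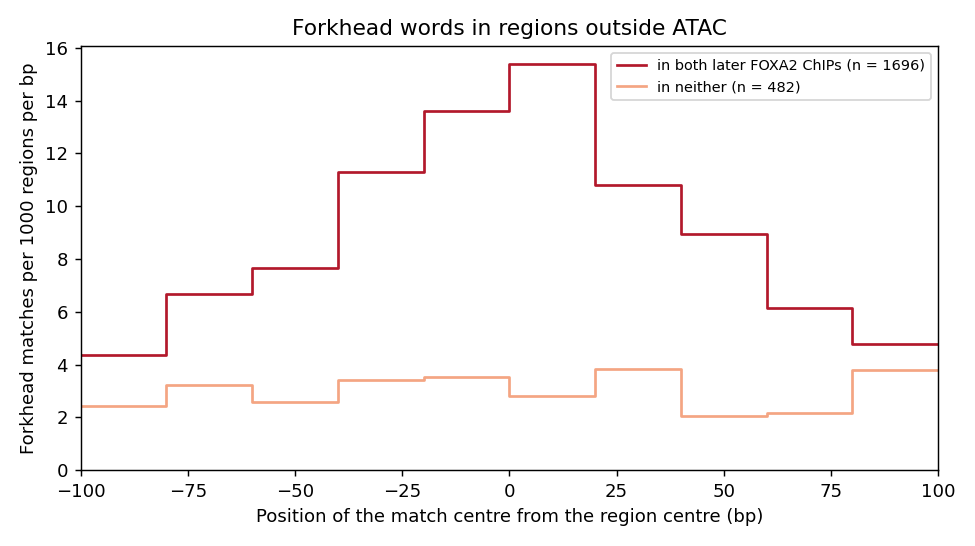
Forkhead words per 1000 regions per bp (y axis) by position of the word from the region centre in bp (x axis, bins of 20 bp) in ATAC-negative regions found in both later FOXA2 ChIPs (red, n = 1696) or in neither (orange, n = 482). The red line peaks at 15.4 beside the centre, and the orange line stays between 2.07 and 3.84.

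The unrecovered regions overlapped several lists of other factors and lines more often than the recovered ones, although 262 of the 482 were in no other list. Of the 482, 28.6% (24.8 to 32.8) overlapped a LNCaP_FOXA2OE FOXA2 region, against 0.354% of the 1696 in both later ChIPs. PC3 siNC JUN overlapped 17.6% and 2.06%, PC3 siNC FOSL1 13.5% and 0.118%, PC3 siFOXA2 JUN 14.1% and 0.118%, and NCI-H660 siNC JUN 13.9% and 0.354%. H3K27ac and NCI-H660 ATAC went the other way, with 5.81% and 16.0%, and with 2.07% and 5.84%. The division was similar in ATAC-positive regions, where 20.8% of the 549 unrecovered and 0.216% of the recovered overlapped LNCaP_FOXA2OE FOXA2, and 14.8% and 4.02% PC3 siNC FOSL1. Repeated sequence moved with this division: fewer than 50% of the 51-base words in the central 200 bp were unique in the genome in 24.9% of the unrecovered and in 3.48% of the recovered regions, and in 19.1% and 2.20% of the ATAC-positive ones. Among the 362 unrecovered regions with at least 50% unique words, 19.6% still overlapped LNCaP_FOXA2OE FOXA2, 13.5% PC3 siNC JUN, and 44.5% held a forkhead word. The part of sequence repeats in these overlaps was not tested further.

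**Figure D3:**
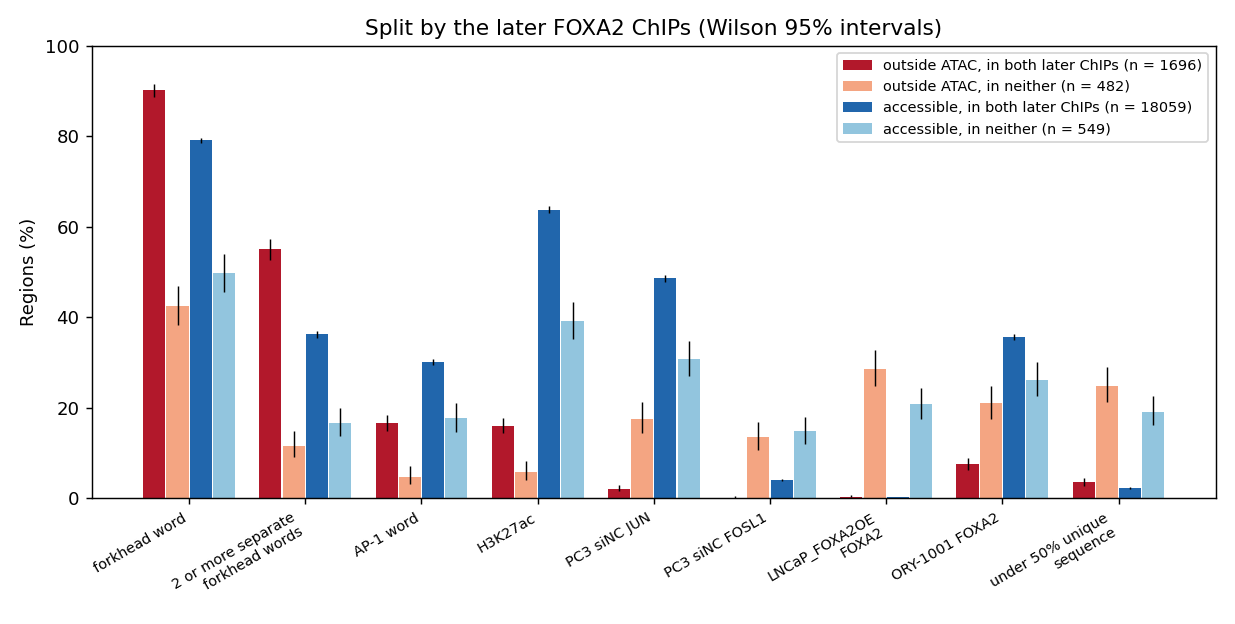
Share of regions (y axis, %) with each feature or list overlap (x axis) for ATAC-negative and ATAC-positive regions, each divided by presence in both or neither later FOXA2 ChIP, with Wilson 95% intervals. ATAC-negative regions in both (n = 1696) lead in forkhead words at 90.2%, and those in neither (n = 482) lead in overlap with LNCaP_FOXA2OE FOXA2 at 28.6% and in repeated sequence at 24.9%.

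The 262 regions in no other list had a median score of 28, and 48.5% held a forkhead word. At the other end, 51 ATAC-negative regions were overlapped in 8 or more of the 22 lists and 46 of these 51 were in neither later ChIP. None of the 51 held an AP-1 word, 35.3% held a forkhead word, and 47.1% had fewer than 50% unique words. The most widely listed member with the highest score, picked after its values were seen, lay 31747 bp from PAM (chr5:102374903-102375136, score 435) in 13 lists, with 28.7% unique words and no forkhead word. It scored 918 under ORY-1001 and 992 under C12.

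H3K27ac was scarce at the ATAC-negative regions. It overlapped 312 of them (13.7%, 12.4 to 15.2), beside 58.7% of all vehicle regions and 62.7% of ATAC-positive regions. The standardised difference was -43.1 percentage points (-44.8 to -41.4), and it was -42.8 among regions found in both later ChIPs. Within 1 kb of the region the shares were 27.4% and a standardised 73.5%. ATAC-negative regions with H3K27ac had a median score of 97.5, against 82.0 without it, and 86.9% against 72.7% were in both later ChIPs.

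JUN was scarcer still. PC3 siNC JUN overlapped 124 ATAC-negative regions (5.46%, 4.59 to 6.47), beside 44.3% of all vehicle regions and 47.7% of ATAC-positive regions, a standardised difference of -34.6 points (-35.9 to -33.2). Of these 124, 85 were in neither later ChIP, and only 12.1% held an AP-1 word. The 35 with JUN that were in both later ChIPs held an AP-1 word in 34.3% of cases (20.8 to 50.8), against 16.2% of the 1661 without JUN. After siFOXA2, JUN was listed at 3.08% of ATAC-negative regions, beside 8.57% of all vehicle regions. FOSL1 was listed at 2.99% after siNC and at 0.264% after siFOXA2, beside 7.24% and 1.30%. These vehicle shares include regions shared with NCI-H660 FOXA2, which the choice removed. Against ATAC-positive regions the standardised difference was -2.01 points (-2.83 to -1.19) for JUN after siFOXA2. For FOSL1 it was -1.01 (-1.83 to -0.196) after siNC and 0.149 (-0.0696 to 0.367) after siFOXA2. The siFOXA2 lists were shorter than the siNC lists, with 4081 against 23890 regions for JUN and 1538 against 3843 for FOSL1. None of the 68 regions in the siNC FOSL1 list held an AP-1 word, and 65 of them were in neither later ChIP, with fewer than 50% unique words in 60.3%.

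**Figure D4:**
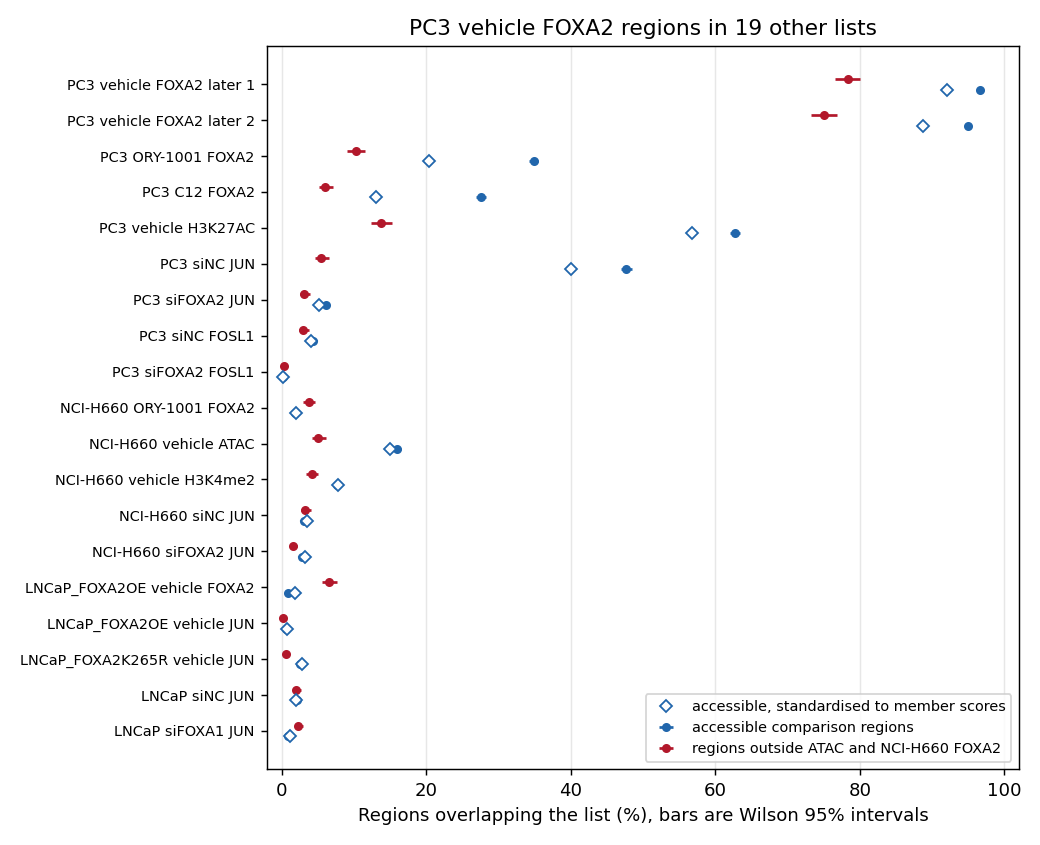
Share of regions (x axis, %) overlapping each of the 19 lists not used in the choice (y axis) for ATAC-negative (red) and ATAC-positive regions (blue), with Wilson 95% intervals; open diamonds are the ATAC-positive shares standardised to the score of the ATAC-negative regions. The widest standardised gaps are H3K27ac (13.7% against 56.8%) and PC3 siNC JUN (5.46% against 40.0%), and LNCaP_FOXA2OE FOXA2 is the widest in the other direction (6.56% against 1.88%).

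Few ATAC-negative regions were listed after LSD1 inhibition. The ORY-1001 list held 232 (10.2%, 9.03 to 11.5), beside 36.8% of all vehicle regions, and the C12 list held 137 (6.03%, 5.12 to 7.08), beside 29.6%. The inhibitor lists were shorter than the vehicle list, with 13732 and 8352 regions. Against the standardised ATAC-positive shares the differences were -10.2 points (-11.6 to -8.76) and -6.96 points (-8.06 to -5.86). Both include the highest score band, in which scores were not matched. The gap varied with the score. At scores of 13 to 29 the ATAC-negative and ATAC-positive shares under ORY-1001 were 4.24% and 11.3%, with intervals that did not overlap. Under C12 the intervals in that band overlapped. In the band of 30 to 49 the shares had overlapping intervals under both inhibitors. They were 8.22% and 9.16% under ORY-1001 and 4.77% and 4.11% under C12. At 120 to 199 they were 13.9% and 28.7% under ORY-1001 and 5.19% and 17.7% under C12. At 200 or more they were 21.7% and 59.7%, and 19.3% and 54.6%, in a band where ATAC-positive scores reached 12604 and ATAC-negative ones 949. The lists of both inhibitors held 88 ATAC-negative regions, of which 47 were in neither later ChIP.

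A further 39 of the 88 were in both later ChIPs, and 38 of these 39 held a forkhead word. H3K27ac overlapped 14 of the 39 (35.9%, 22.7 to 51.6), and 25 lay inside a protein-coding gene. The 4 that reached within 1 kb of a transcription start, counted as promoters here, were at PDGFRA, a growth factor receptor gene (chr4:55095174-55095567, score 435), KDM6A, a histone H3K27 demethylase gene (chrX:44733697-44734150, score 98), GBX2, a homeobox gene (chr2:237077681-237077971, score 83), and FCHSD2 (chr11:72851474-72851704, score 64). Others lay in introns with the nearest transcription start that of ARID5B (score 482), LATS2, a Hippo pathway kinase gene (score 434), or IQGAP1 (score 331). These genes were singled out after their values were seen.

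Distance from accessible chromatin separated H3K27ac more than FOXA2 recovery. The median distance to the nearest ATAC region was 3494 bp (quartiles 1246 to 9387). H3K27ac overlapped 40.8% of the 262 regions within 500 bp, 20.4% of the 206 at 500 to 999 bp, 10.9% at 1000 to 4999 bp, 8.86% at 5000 to 19999 bp, and 2.24% of the 223 farther away. Presence in both later ChIPs was 76.0%, 84.0%, 79.3%, 68.6% and 65.0% in these bins, and the forkhead share 80.9%, 83.0%, 81.5%, 77.2% and 73.1%. AP-1 words were at 8.40% and 9.22% below 1000 bp and between 15.3% and 15.7% beyond. Fewer than 50% unique words were found in 15.2% of the farthest regions and in 6.43% to 9.71% of the others.

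**Figure D5:**
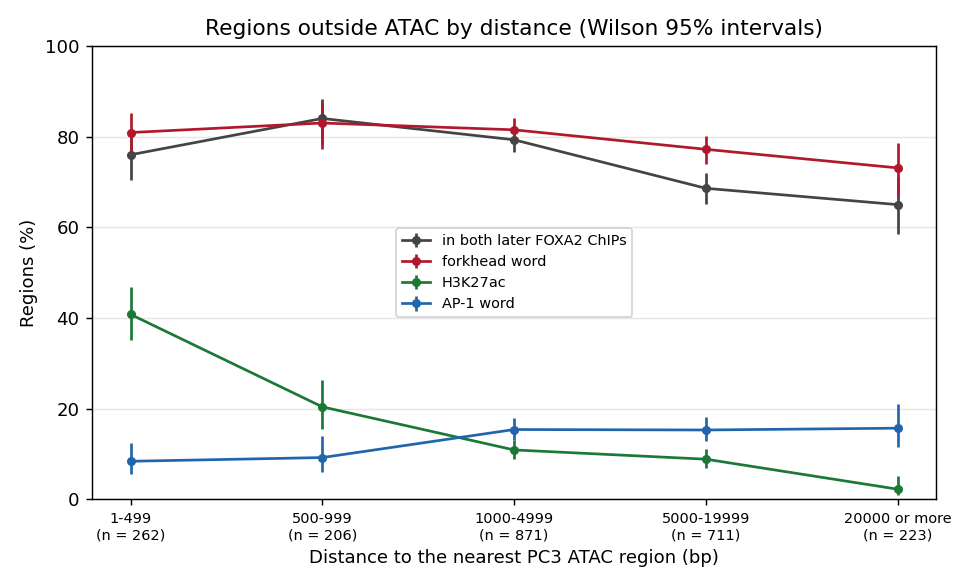
Share of the ATAC-negative regions (y axis, %) by distance to the nearest PC3 ATAC region in bp (x axis, 5 bins with n), with Wilson 95% intervals. H3K27ac goes from 40.8% to 2.24% with distance, whereas the forkhead share stays between 73.1% and 83.0%.

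Values just inside and just outside the ATAC exclusion are given as a description. The 60 ATAC-negative regions within 100 bp of an ATAC region overlapped H3K27ac in 40.0% of cases, were in both later ChIPs in 71.7% and held a forkhead word in 76.7%. The 174 ATAC-positive regions with at most 100 bp inside ATAC regions gave 39.1%, 73.0% and 76.4%. PC3 siNC JUN overlapped 3.33% of the former and 13.8% of the latter. The nearest ATAC-negative region abutted an ATAC region (chr2:58497123-58497367, score 44, 28700 bp from FANCL), and the ATAC-positive region with the least overlap shared 7 bp (chr20:25371811-25372038, score 116, at the GINS1 promoter). For this pair the exclusion turned on a few base pairs.

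In NCI-H660, 115 ATAC-negative regions (5.06%, 4.23 to 6.04) were accessible, beside 22.6% of all vehicle regions. That none of them overlapped NCI-H660 vehicle FOXA2 follows from the choice. Of these 115, 86.1% were in both later PC3 ChIPs and 89.6% held a forkhead word. They overlapped NCI-H660 H3K4me2 in 32.2% of cases, against 2.64% of the ATAC-negative regions outside NCI-H660 ATAC. H3K4me2 overlapped 4.14% of all ATAC-negative regions, beside 14.2% of the vehicle list. NCI-H660 FOXA2 under ORY-1001 overlapped 3.70% (beside 11.0%), NCI-H660 JUN 3.26% after siNC (beside 8.40%) and 1.54% after siFOXA2 (beside 5.29%). The shares of all vehicle regions include those shared with NCI-H660 FOXA2, which the choice removed. Against ATAC-positive regions, which lack them too, the standardised difference was -9.98 points (-11.1 to -8.83) for NCI-H660 ATAC and -3.70 (-4.69 to -2.70) for H3K4me2. It was 1.69 points (0.857 to 2.53) for FOXA2 under ORY-1001, -0.206 (-1.04 to 0.629) for JUN after siNC and -1.72 (-2.38 to -1.07) for JUN after siFOXA2.

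FOXA2 in LNCaP_FOXA2OE was listed at 149 ATAC-negative regions (6.56%, 5.61 to 7.65), beside 4.87% of all vehicle regions and 0.906% of ATAC-positive regions, a standardised difference of 4.67 points (3.59 to 5.75). Of these 149, 138 were in neither later PC3 ChIP, 1.34% held an AP-1 word, and 45.0% had fewer than 50% unique words. That list held exactly 2500 regions and no score. JUN was listed at 0.132% in LNCaP_FOXA2OE (beside 1.38%), 0.528% in LNCaP_FOXA2K265R (beside 4.13%), 2.29% in LNCaP after siFOXA1 (beside 4.18%) and 2.02% after siNC (beside 5.25%). The standardised differences from ATAC-positive regions were -0.542 (-0.791 to -0.293), -2.27 (-2.76 to -1.78), 1.10 (0.428 to 1.77) and 0.134 points (-0.508 to 0.777) in the same order.

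Taken as a whole, the ATAC-negative regions lay somewhat farther from genes than the ATAC-positive ones, but those in both later ChIPs had no larger median distance. More than 100 kb from a transcription start were 41.8% against a standardised 38.2% (3.55 points, 1.30 to 5.79), and the share inside a protein-coding gene differed by -3.38 points (-5.66 to -1.10). Fewer than 50% unique words were found in 7.92% against 3.63% (4.29 points, 3.10 to 5.49). By GENCODE annotation, 53.2% lay between protein-coding genes, 39.8% in introns, 3.12% at promoters, 2.16% at coding exons and 1.76% at UTRs, against 49.2%, 43.4%, 3.56%, 2.13% and 1.69%. Their median distance to a transcription start was 65483 bp, and 55681 bp in the ATAC-positive group. Among regions in both later ChIPs these medians were 50648 bp and 53450 bp. Of those regions, 37.5% and 36.1% lay more than 100 kb from a start, and 49.2% and 50.9% inside a protein-coding gene. Median GC content of the central 200 bp was 35.5% against 37.5%. The 71 promoter regions overlapped H3K27ac in 32.4% of cases and were in both later ChIPs in 87.3%, beside 13.7% and 74.6% of all ATAC-negative regions. JUN overlapped 0 of 71, with a Wilson upper limit of 5.13%. Its share was 5.46% of all ATAC-negative regions and 2.06% of those in both later ChIPs. The highest-scoring promoter region in both later ChIPs lay 298 bp from the start of TMEM87A (chr15:42563310-42563692, score 654, 3 forkhead words). Another lay 680 bp from IRF1, an interferon response factor gene (chr5:131824354-131824635, score 225, 2 forkhead words), and both are named after their values were seen.

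Of 19807 protein-coding genes, 2551 (12.9%) had an ATAC-negative region within 100 kb of a transcription start, and the shares of the gene lists are read beside it. Among endoderm and liver genes 3 of 26 did, FOXA2 itself among them. The region by FOXA2 lay 39415 bp away between genes (chr20:22605370-22605646, score 76), was in both later ChIPs and held 1 forkhead word. Among AP-1 subunit genes 1 of 9 did: a region between genes 12152 bp from FOSL1 (chr11:65680049-65680342, score 284) held 2 forkhead words and no AP-1 word, scored 335 under ORY-1001 and 166 under C12, overlapped H3K27ac and lay 43 bp from an ATAC region.

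Among luminal genes 2 of 14 had such a region. HOXB13, the prostate homeobox gene, had 1 at 12494 bp (chr17:46793469-46793766, score 143) and 1 at 49183 bp (score 22), and SLC45A3, a prostate marker, had 1 at 46811 bp (score 72). Among basal genes 2 of 10 did, CD44, the hyaluronan receptor gene (chr11:35122850-35123132, score 115, no forkhead word), and EGFR (chr7:55055544-55055787, score 81, 4 forkhead words). POU3F2 was the only 1 of 20 neural and neuroendocrine genes (10880 bp, chr6:99271448-99271691, score 66), and FN1 the only 1 of 15 mesenchymal genes (61333 bp, in an ATIC intron, score 24, in later ChIP 1 only). None of the 8 genes listed here as ChIP-qPCR targets of the study, a list without FOSL1, had one. Vehicle regions of any kind were within the same distance of 16 endoderm and liver, 8 neural and neuroendocrine, 11 luminal, 9 basal, 14 mesenchymal, 7 AP-1 and 8 ChIP-qPCR genes.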

How the data were processed

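The authors aligned ChIP-seq and ATAC-seq reads to hg19 with BWA 0.7.17-r1188, used SAMtools 1.9 and FastQC 0.11.9 (the last per the submitters' processing notes) and called enriched regions with MACS2 2.1.4. How MACS2 was set, which control it used, whether libraries were pooled and how ATAC reads were shifted are not given in the sources used here. The 22 deposited files were lists of intervals. In 20 of them the authors deposited a whole-number score, taken from its range to be 10 times the −log10 q-value. The minimum was 13 in most lists, 14 in later ChIP 1, 30 in LNCaP_FOXA2OE JUN and 23 in LNCaP_FOXA2K265R JUN, so a list's length is not a measure of binding. The LNCaP siNC JUN and LNCaP_FOXA2OE FOXA2 lists held no score. Region identifiers named several processing folders: the PC3 vehicle, ORY-1001 and C12 FOXA2 lists shared one with the NCI-H660 FOXA2 and JUN lists, and the PC3 ATAC list and the later ChIPs had others.

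Lists were grouped by the labels. Regions reaching within 1 kb of a protein-coding start were counted as promoters. A region was in another list if they shared at least 1 bp. The regions, gene lists and named-region rule were chosen with earlier results of these data known. The rule names the 5 highest-scoring ATAC-negative regions, the 5 highest found in both later ChIPs and under both inhibitors, the 2 highest in no other list, the region on each side of the ATAC threshold and the highest-scoring near each gene list; no region reached 17 lists, for which one was also to be named. Some of these regions and genes are not reported here. Motif words on either strand were counted up to 100 bp from the region's middle in GRCh37, which matched hg19 in chromosome names and held every region, with annotation from GENCODE 44 for that build. Flanks were windows of the same length centred 2 kb away. A 51-base word was called unique if it occurred once in the genome on either strand. Standardised shares used 10 bands of the vehicle score, and intervals of differences cover counting error only, since regions are not replicates. Overlap, motif and standardisation code was tested on simulated data. Python 3.11.15 with numpy 2.4.6, pandas 2.3.3 and pysam 0.24.0 was used. Alternatives were another overlap or score minimum, other exclusions, a wider motif window, leaving out a later ChIP and unstandardised differences.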

Additional observations from a re-analysis of the deposited data

How the results depend on the processing

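Of 76 recomputed shares and differences, 29 stayed within the 95% interval of the reported value. No difference from ATAC-positive regions changed sign, although the interval of the plain forkhead difference included 0. Counting a region as accessible only if at least 50% of it lay in ATAC regions gave 3597 ATAC-negative regions, 80% of them in both later ChIPs, 21.7% with H3K27ac, 8.87% with JUN, 13.3% under ORY-1001 and 9.23% under C12. Allowing NCI-H660 FOXA2 overlap gave 70.2% in both later ChIPs, 77.0% with a forkhead word, 16.3% with H3K27ac, 9.64% with JUN, 15.2% under ORY-1001 and 10.6% under C12. A vehicle score of at least 50 gave 88.3% in both later ChIPs, 86.0% with a forkhead word, 16.1% with an AP-1 word and 15.4% with H3K27ac. Keeping only regions 1 kb or more from ATAC gave 9.03% with H3K27ac. Requiring 50% of the region to be overlapped gave 5.59% with H3K27ac, and a score of at least 50 in the other list gave 10.9% with H3K27ac, 3.74% with JUN, 7.48% under ORY-1001 and 4.31% under C12. A motif window of 250 bp gave 90.6% with a forkhead and 17.6% with an AP-1 word. Leaving out either later ChIP gave 75.1% to 78.4% in place of 74.6%.

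Plain differences from ATAC-positive regions were -20.0 points for both later ChIPs, 1.41 for forkhead, -15.6 for AP-1, -49.0 for H3K27ac, -42.3 for JUN, -24.7 for ORY-1001 and -21.5 for C12. The remaining alternatives were chosen after seeing the data. Leaving out regions with fewer than 50% unique words gave 78.2% in both later ChIPs, 81.6% with a forkhead word, 4.16% with JUN, 8.41% under ORY-1001 and 4.92% under C12. Cutting the later lists to the vehicle list's length gave 48.2%. Within regions found in both later ChIPs, shares were 90.2% for forkhead, 16.6% for AP-1, 16.0% for H3K27ac, 2.06% for JUN, 7.49% for ORY-1001 and 4.13% for C12, and standardised differences were 14.0 points for forkhead, -39.7 for JUN, -14.7 for ORY-1001 and -10.1 for C12. The cause of these shifts was not tested. No paired analysis was possible because each group but one holds 1 list. The unknown depth limits every statement that a region is absent from a list.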
